A study of Homo sapiens with 3 samples.

Results

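The 52 genes described here are interferon-stimulated genes, the antiviral and signalling genes that cells switch on when interferon binds its receptors. They were taken by name from a list chosen with earlier results of these data known. All 52 were found among the 58735 genes of the count files. Their RNA was read by sequencing in 3 established prostate cancer lines of human origin, each represented by 1 library. PC3, from a bone metastasis, and DU145, from a brain metastasis, grow without androgen and stood for castration-resistant cancer in the series design, and LNCAP, an androgen-responsive line from a lymph node metastasis, stood for androgen-dependent cancer. Per the labels, all 3 lines were grown in medium with 10% serum. Several media are listed without being assigned to lines, so whether the medium differed between lines is not known. No interferon or other treatment is named, so the values are levels in unstimulated cultures as far as the labels say. The labels name no separate cultures of a line, and no difference between lines has a replicate check.

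Interferons are secreted proteins that cells make when sensors find viral or misplaced nucleic acid. They bind receptors whose attached kinases JAK1 and TYK2 activate a transcription factor complex that holds STAT2 and IRF9 and binds a short promoter motif, the interferon-stimulated response element. The genes this complex switches on include sensors, transcription factors that feed the loop, and effectors that block viral entry, translation or replication. In tumour cells a part of this set is often read without any infection.

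The libraries held 15319045 counts in PC3, 15878546 in DU145 and 15393103 in LNCAP. Levels are normalised CPM, counts relative to the TMM-scaled library total, unless FPKM, which also divides by gene length, is named. The line labels were checked first: KLK3, the prostate-specific antigen gene, had 0 counts in PC3, 0 in DU145 and 35507 in LNCAP, and the vimentin gene VIM had 6556, 7886 and 54. The epithelial keratin gene KRT8 was read in every line, at 258, 1041 and 445 CPM. Markers of leukocytes were close to absent, with 13, 27 and 18 counts in all over 8 genes in PC3, DU145 and LNCAP, and the 2 plasmacytoid dendritic cell markers LILRA4 and CLEC4C had none. Of the 3 endothelial markers, PECAM1 had 307, 12 and 0 counts in PC3, DU145 and LNCAP, VWF had 1, 0 and 144, and CDH5 had 0, 3 and 2. Of the 4 fibroblast markers, COL1A1 had 488, 148 and 518 counts, PDGFRA had 66, 0 and 3, DCN had 0, 0 and 3, and LUM had none. The markers of a list thus did not share an order of the lines, and the part of these genes in the results below was not tested. In a bulk library, fewer cells with an RNA and less of it per cell cannot be told apart.

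The promoter sequences of the members were set out before their levels, because neighbours with like motifs are compared further on. The core of the response element was searched on both strands as GAAA, any 2 bases and GAAA again (TTTC, any 2 bases and TTTC on the other) in RefSeq promoters of build GRCh38.p14, each of 300 bases from 250 before a gene's start. Promoters were found for 42 of the 52 members. The core was in 34 of their 56 promoters (60.7%) and in 1255 of all 35116 promoters of the table (3.57%). The gamma-activated site, searched as TTCNNNGAA, which reads alike on both strands, was in 28.6% of the members' promoters and 7.66% of all. Core matches overlapped each other in 5 of the members' promoters and overlapped a TTCNNNGAA match in 6. A match is a description of letters and not a measured binding site. IFI16, CMPK2, SAMD9L and HERC6, which also stood far apart or lie beside other members, held no core match in their promoters. The following 40-base stretches are read along each gene's strand with core matches in capitals. All come from promoters with a core match, of genes that share a promoter or a neighbourhood or stood far apart between the lines.
DTX3L (chr3:122564317-122564356, plus strand): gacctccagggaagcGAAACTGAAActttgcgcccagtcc
PARP14 (chr3:122680795-122680834, plus strand): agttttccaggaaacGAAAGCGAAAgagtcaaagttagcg
GBP1 (chr1:89065311-89065350, minus strand): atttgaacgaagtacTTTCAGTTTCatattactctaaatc
GBP3 (chr1:89022840-89022879, minus strand): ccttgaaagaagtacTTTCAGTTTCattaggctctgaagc
IFIT1 (chr10:89392492-89392531, plus strand): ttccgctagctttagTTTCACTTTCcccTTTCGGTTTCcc
PLSCR1 (chr3:146544662-146544701, minus strand): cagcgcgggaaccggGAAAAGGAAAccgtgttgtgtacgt
BST2 (chr19:17405736-17405775, minus strand): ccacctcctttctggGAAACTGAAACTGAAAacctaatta

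The DTX3L stretch, at the same coordinates, is also part of a promoter of PARP9, which lies on the other strand. Another promoter of PARP9 held no core match. The GBP1 and GBP3 stretches were identical at 31 of 40 bases, and they hold the same 10-base match. In BST2 the capitals are 2 overlapping matches.

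Most members were read at low to moderate levels. Per length, 21 members were at 1 FPKM or more in every line, 8 were under 1 FPKM in every line and 5 were at 10 FPKM or more in every line. The 5 were IFITM3, ISG15, LGALS3BP, IRF3 and STAT2. IFITM3, which encodes a membrane protein that blocks viral entry, was at 47.9 FPKM in PC3, 26.3 in DU145 and 45.6 in LNCAP. ISG15, a ubiquitin-like protein gene, was at 38.9, 23.4 and 43.3 FPKM in the same order. The 52 members together held 1036 CPM in PC3, 745 in DU145 and 813 in LNCAP, and without the 5 members of highest mean FPKM they held 718, 563 and 559 CPM. Of the 52, 48 reached 1 CPM in at least 1 library and were compared, and MX2, XAF1, EPSTI1 and RTP4 did not.

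**Figure D1:**
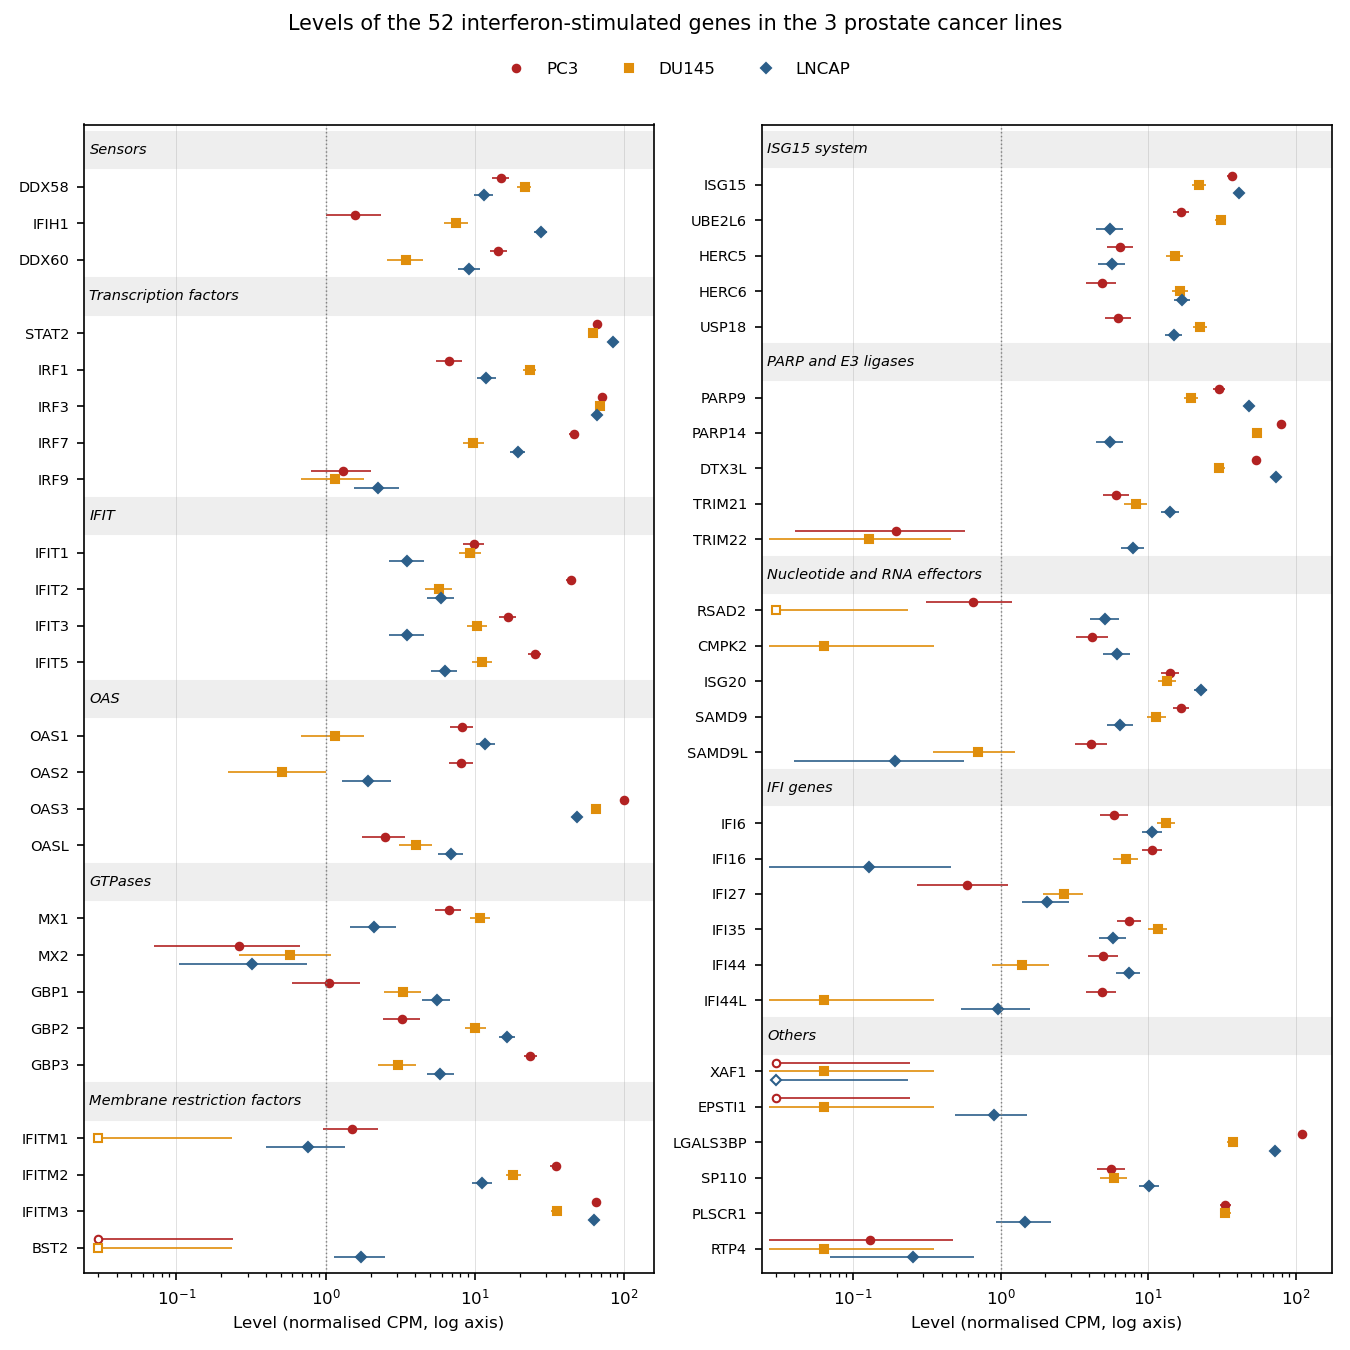
Level of each of the 52 members in PC3, DU145 and LNCAP, as normalised CPM on a log axis. Bars are exact 95% counting intervals of 1 library, open symbols at the left edge are counts of 0, and the dotted line marks 1 CPM. IFIH1, OAS1, IFI16, PARP14, PLSCR1 and TRIM22 show symbols of 1 or 2 lines far from the rest, while IRF3 and IRF9 show all 3 close together.

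Differences between lines were read as the ratio of scaled counts with its exact 95% counting interval, given in brackets after each fold. A 4-fold call needed a log2 ratio of 2 or more in either direction, taken after adding 0.5 counts, and an interval clear of a ratio of 1. These intervals hold counting error only and say nothing of variation between cultures. A library without counts was given 3 counts to obtain a bound on the fold, which is marked "at least".

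PC3 was set against LNCAP as castration-resistant against androgen-dependent cells, and the members went both ways. Of the 48 compared, 9 were at least 4-fold higher in PC3, against 13.0% of all 18025 genes compared, and 6 were at least 4-fold lower, against 13.3%. The 9 were 18.8% of the members compared. In all, 15 were 4-fold apart (31.2%, against 26.3% of all genes), and for 42 the interval was clear of a ratio of 1 (87.5%, against 79.3%). The median log2 ratio of the members was 0.08, beside -0.01 over all genes. The members higher in PC3 were IFIT2, IFIT3, IFIT5, OAS2, PARP14, SAMD9L, IFI16, IFI44L and PLSCR1, and the members lower were IFIH1, GBP1, GBP2, BST2, TRIM22 and RSAD2.

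DU145, the other castration-resistant line, was set against the same LNCAP library, so both comparisons share it. At least 4-fold higher in DU145 were 5 members (10.4%), against 13.7% of all genes, and 8 were lower (16.7%), against 12.1%. Together these were 13 members (27.1%, against 25.8%), and for 43 the interval was clear of a ratio of 1 (89.6%, against 80.2%). The median log2 ratio was -0.72, beside 0.00 over all genes. The members higher in DU145 were MX1, UBE2L6, PARP14, IFI16 and PLSCR1. The members lower were OAS1, IFITM1, BST2, TRIM22, RSAD2, CMPK2, IFI44 and IFI44L.

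The comparison of PC3 with DU145 asked how the castration-resistant lines differed from each other. At least 4-fold higher in PC3 were 11 members (22.9%), against 8.54% of all genes, and 2 were lower (4.17%), against 10.6%. Together these were 13 members (27.1%, against 19.1%), and for 39 the interval was clear of a ratio of 1 (81.2%, against 74.4%). The median log2 ratio was 0.53, beside 0.02 over all genes. It was 0.54 over 46 members, with those at 0 counts in 1 library at their bound and without BST2 and TRIM22, for which no fold is given. The 11 were DDX60, IRF7, IFIT2, OAS1, OAS2, GBP3, IFITM1, RSAD2, CMPK2, SAMD9L and IFI44L, and the 2 were IFIH1 and IFI27. For RSAD2 the call rests on the added counts, since its bound is at least 3.42-fold. The split depends on the threshold and the unit. At 2-fold, 14 members were higher in PC3 (29.2%, against 18.5% of all genes) and 9 lower (18.8%, against 19.3%). With 1 added to FPKM, 1 member was 4-fold higher (2.08%, against 2.62%) and 0 lower (against 2.90%). With 1 library per line these shares describe these libraries and were not tested.

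**Figure D2:**
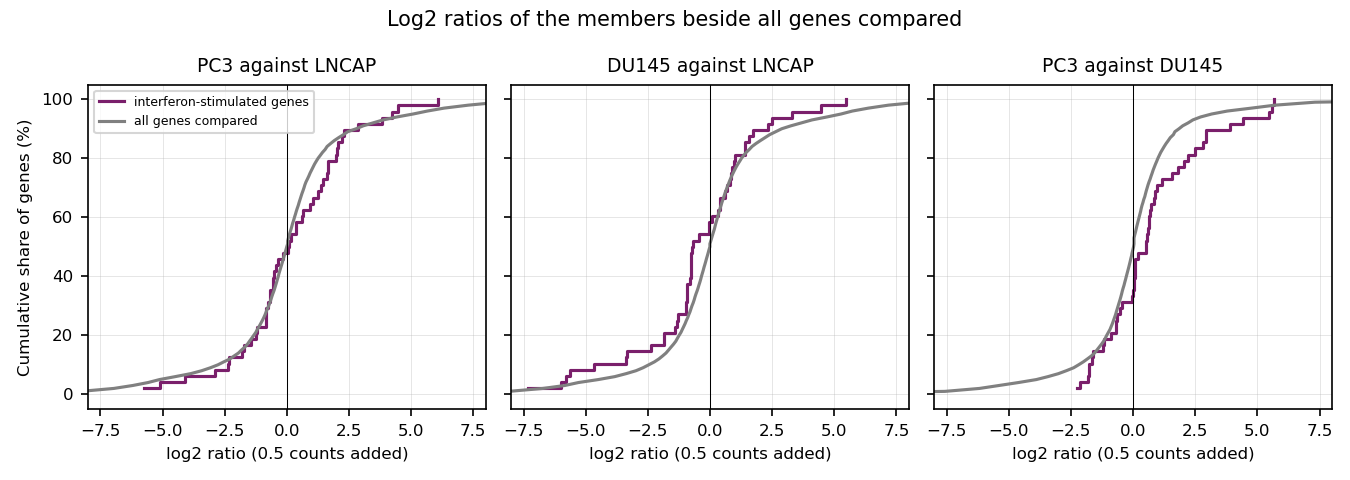
Cumulative share of genes (vertical axis, percent) by log2 ratio (horizontal axis) for the 48 members compared and all 18025 genes compared, in the 3 pairs of lines. In PC3 against LNCAP the medians are 0.08 for the members and -0.01 for all genes, in DU145 against LNCAP the members' curve lies to the left in its lower part (median -0.72), and in PC3 against DU145 it lies to the right in its upper part (median 0.53).

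Counting which line stood apart from the other 2 beyond counting error gave 15 members highest in PC3 (31.2%), against 23.5% of all genes, 8 highest in DU145 (16.7%), against 23.4%, and 17 highest in LNCAP (35.4%), against 28.4%. DU145 was the lowest line for 15 members (31.2%), against 18.8% of all genes. PC3 was lowest for 10 (20.8%, against 19.8%) and LNCAP for 12 of the 48 (against 24.8%). All 3 lines lay within 2-fold for 8 members (16.7%), against 32.7% of all genes. These 8 were DDX58, STAT2, IRF3, IRF9, IFITM3, ISG15, ISG20 and SP110.

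**Figure D3:**
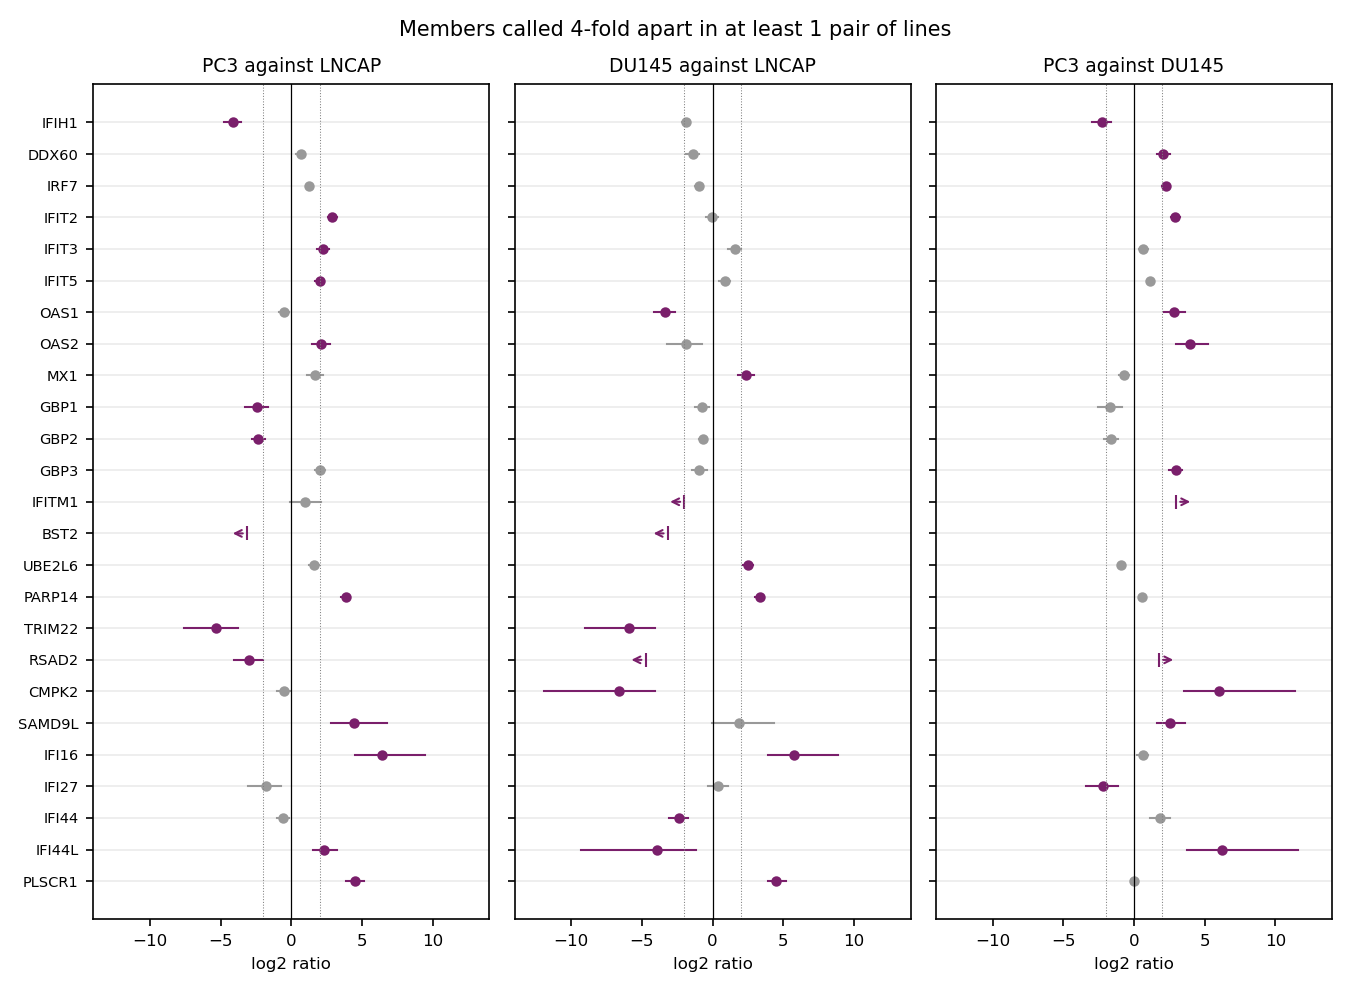
Log2 ratio of the 25 members called 4-fold apart in at least 1 of 3 pairs of lines, with exact 95% counting intervals. Purple marks a call and grey no call, arrows start at the bound where 1 library had no counts, no symbol is drawn where both had 3 counts or fewer, and dotted lines mark 4-fold. IFI44L lies right of 0 in PC3 against LNCAP and left of 0 in DU145 against LNCAP, while PARP14, IFI16 and PLSCR1 lie right of 0 in both panels.

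Among the RNA sensors, IFIH1 (chromosome 2, 162267079 to 162318703), whose product finds long double-stranded RNA, stood at 1.57 CPM in PC3, 7.53 in DU145 and 27.6 in LNCAP. It was 17.6-fold lower in PC3 than in LNCAP (11.6 to 27.7) and 4.80-fold lower in PC3 than in DU145 (3.07 to 7.78). DU145 was 3.66-fold lower than LNCAP (2.98 to 4.53). DDX58, the gene of the sensor RIG-I, was read at 14.9 CPM in PC3, 21.5 in DU145 and 11.5 in LNCAP, so the lines lay within 2-fold and DU145 was highest. DDX60, a helicase gene, was at 14.4 CPM in PC3, 3.45 in DU145 and 9.15 in LNCAP, and PC3 was 4.18-fold higher than DU145 (3.09 to 5.73).

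None of the 5 transcription factors was 4-fold apart from LNCAP in either line, and 1, IRF7, was 4-fold apart between PC3 and DU145. STAT2, a part of the complex that binds the response element, was at 65.5 CPM in PC3, 61.8 in DU145 and 83.7 in LNCAP. IRF3, the factor that induces interferon itself, was at 70.8, 69.2 and 66.3 CPM in PC3, DU145 and LNCAP, and no pair differed beyond counting error. IRF7, which amplifies interferon production, was at 45.9 CPM in PC3, 9.76 in DU145 and 19.3 in LNCAP, and was 4.70-fold higher in PC3 than in DU145 (3.94 to 5.63). IRF1, a factor of the interferon gamma response, ran the other way at 6.74, 23.3 and 12.0 CPM, and was 3.46-fold lower in PC3 than in DU145 (2.77 to 4.34). IRF9, the DNA-binding part of the complex, was read from 20, 18 and 35 counts in PC3, DU145 and LNCAP. Its model shares 48.4% of its exon bases with another protein-coding model on the same strand, so its level is uncertain. IRF1 shares 22.0% of its exon bases with a model on the opposite strand and IRF3 19.4%, and whether reads were counted by strand is not known.

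The IFIT genes, whose proteins bind foreign RNA and block its translation, lie together on chromosome 10 (89283694 to 89421001). All 4 were lower in LNCAP than in PC3. IFIT2 stood at 43.8 CPM in PC3, 5.74 in DU145 and 5.95 in LNCAP, so PC3 alone was high, at 7.37-fold over LNCAP (5.92 to 9.25) and 7.63-fold over DU145 (6.12 to 9.62). IFIT3 was at 16.6 CPM in PC3, 10.4 in DU145 and 3.52 in LNCAP, a 4.70-fold difference of PC3 from LNCAP (3.50 to 6.42). IFIT5 was at 25.2, 11.2 and 6.27 CPM, with PC3 4.02-fold over LNCAP (3.21 to 5.07). IFIT1, whose promoter holds 2 core matches in the stretch printed above, was at 9.81 CPM in PC3 and 9.32 in DU145, a pair that did not differ beyond counting error, and at 3.52 in LNCAP. PC3 was 2.79-fold (2.04 to 3.87) and DU145 2.65-fold (1.93 to 3.68) over LNCAP.

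The OAS genes encode oligoadenylate synthetases, which make a small nucleotide messenger when they meet double-stranded RNA. OAS1, OAS3 and OAS2 lie in a row on chromosome 12 (112906777 to 113011723), and they did not share an order of the lines. OAS3 was the most abundant, at 12.1 FPKM in PC3, 7.86 in DU145 and 5.79 in LNCAP. OAS1 had 125 counts in PC3, 18 in DU145 and 184 in LNCAP, so that DU145 was 10.2-fold lower than LNCAP (6.30 to 17.7) and PC3 7.12-fold higher than DU145 (4.32 to 12.4). OAS2 had 124, 8 and 30 counts, with PC3 15.9-fold over DU145 (7.82 to 37.6) and 4.23-fold over LNCAP (2.82 to 6.53). DU145 was thus lowest in OAS1 and OAS2 and LNCAP in OAS3. OASL, an OAS-like gene without synthetase activity, was at 2.49, 4.02 and 6.91 CPM in PC3, DU145 and LNCAP.

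Of the GTPase genes, MX1, whose product traps viral nucleocapsids, was at 6.67 CPM in PC3, 10.8 in DU145 and 2.11 in LNCAP, and was 5.14-fold higher in DU145 than in LNCAP (3.52 to 7.71). Its neighbour MX2 had 4, 9 and 5 counts and was too low to compare. The guanylate-binding protein genes lie in a row on chromosome 1 (89006666 to 89150456) and split. GBP1 was at 1.05 CPM in PC3, 3.32 in DU145 and 5.57 in LNCAP, and GBP2 at 3.27, 10.1 and 16.4 CPM. PC3 was lowest for both, 5.32-fold (3.10 to 9.71) and 5.01-fold (3.69 to 6.92) below LNCAP. GBP3, whose promoter holds the same core match as that of GBP1, was highest in PC3, at 23.6 CPM against 3.06 in DU145, a 7.69-fold difference (5.68 to 10.6). At 5.88 CPM in LNCAP, its ratio of PC3 to LNCAP was 4.00 (3.17 to 5.09), just short of a call after adding 0.5 counts.

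Among membrane factors, BST2, whose product tethers budding virus and whose promoter holds 2 overlapping core matches, had 0 counts in PC3, 0 in DU145 and 27 in LNCAP. It was at least 8.80-fold lower in PC3 and at least 9.02-fold lower in DU145 than in LNCAP. The IFITM genes block fusion of virus with the cell and sit on chromosome 11 (307631 to 327537). IFITM3 was at 65.0 CPM in PC3, 35.5 in DU145 and 62.6 in LNCAP, and PC3 and LNCAP did not differ beyond counting error. IFITM2 was at 34.9, 18.1 and 11.2 CPM. IFITM1 had 23, 0 and 12 counts, and was at least 4.01-fold lower in DU145 than in LNCAP. IFITM1 shares 32.5% of its exon bases with the IFITM2 model, and the proteins are close relatives, so reads of these genes may have been divided between them and their levels are uncertain. IFITM3 also shares 21.3% of its exon bases with a model on the opposite strand.

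The ISG15 system attaches the small protein ISG15 to other proteins. ISG15 itself was at 36.9 CPM in PC3, 22.1 in DU145 and 41.5 in LNCAP. UBE2L6, its conjugating enzyme, stood at 16.7, 31.0 and 5.50 CPM, and was 5.64-fold higher in DU145 than in LNCAP (4.47 to 7.18). The ligase gene HERC5 was highest in DU145 (6.48, 15.1 and 5.69 CPM), as was USP18 (6.28, 22.4 and 14.8 CPM), whose product removes ISG15 and damps receptor signalling. HERC6, a relative of HERC5 next to it on chromosome 4, was at 4.84 CPM in PC3, 16.4 in DU145 and 16.9 in LNCAP. Thus ISG15 was lowest in DU145, where its conjugating and deconjugating enzyme genes were highest.

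The cluster of PARP9, DTX3L and PARP14 on chromosome 3 (122527924 to 122730840) encodes ADP-ribosylation enzymes and a ubiquitin ligase that act in the interferon response. PARP9 had 461 counts in PC3, 306 in DU145 and 757 in LNCAP, and DTX3L, which shares its promoter, had 823, 476 and 1148. Both were highest in LNCAP and lowest in DU145. PARP14, with its own core match 29 bases before its start, had 1211 counts in PC3, 859 in DU145 and 86 in LNCAP. It was 14.4-fold higher in PC3 (11.6 to 18.1) and 9.97-fold higher in DU145 (7.98 to 12.6) than in LNCAP. Against LNCAP, PARP14 thus ran opposite to PARP9 and DTX3L. Between PC3 and DU145 all 3 were higher in PC3, PARP14 1.45-fold (1.32 to 1.58), PARP9 1.54-fold (1.33 to 1.79) and DTX3L 1.77-fold (1.58 to 1.99). TRIM22, an antiviral ubiquitin ligase gene, had 3 counts in PC3, 2 in DU145 and 123 in LNCAP. It was 40.1-fold (13.4 to 197) and 61.6-fold (16.7 to 515) lower. TRIM21, an antibody receptor and ligase gene, was at 6.08, 8.23 and 14.1 CPM in PC3, DU145 and LNCAP.

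**Figure D4:**
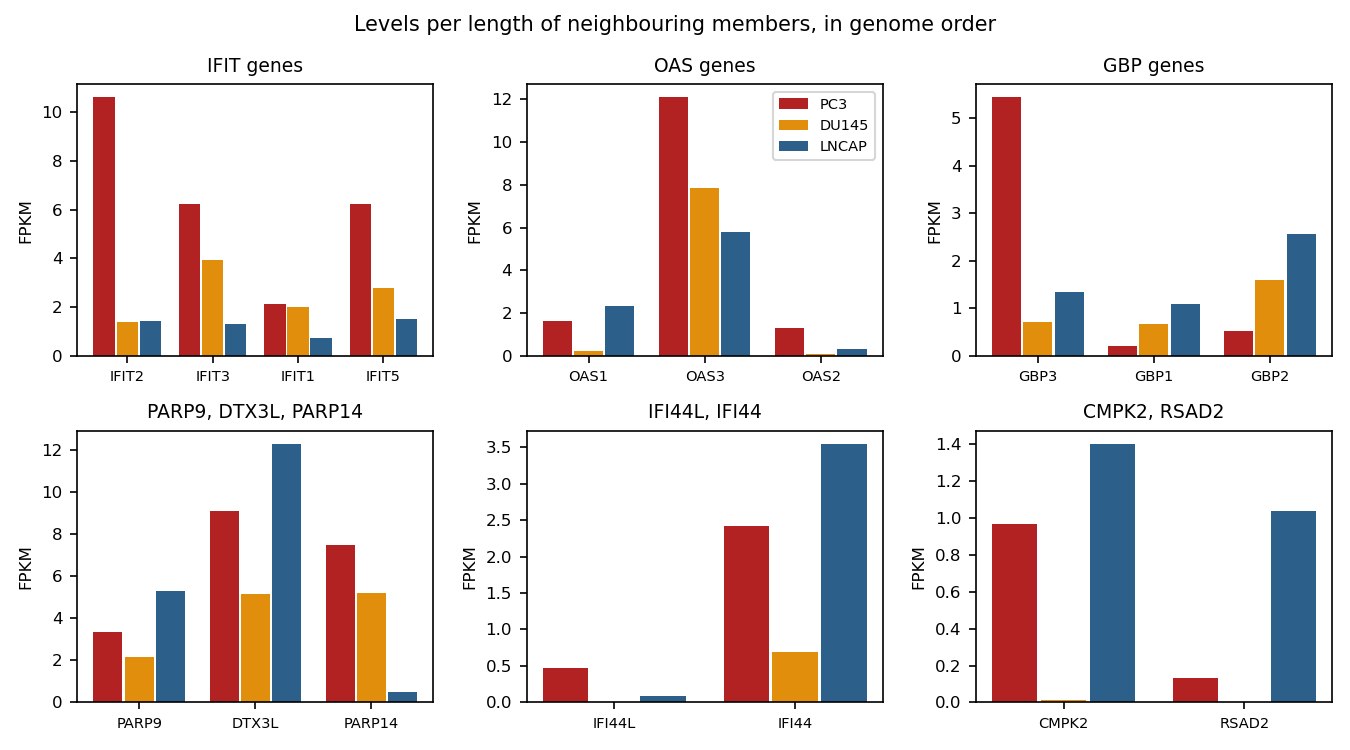
FPKM (linear axis from 0) of members that lie next to each other, in genome order, for PC3, DU145 and LNCAP. Each bar is 1 library with no replicate. PARP14 is low in LNCAP while PARP9 and DTX3L are highest there, GBP3 is highest in PC3 while GBP1 and GBP2 are lowest there, and CMPK2, RSAD2 and IFI44L are near 0 in DU145.

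RSAD2, the gene of viperin, which makes a chain-terminating nucleotide, and CMPK2, a nucleotide kinase gene that supplies it, lie head to head on chromosome 2 (6840570 to 6898239). RSAD2 had 10 counts in PC3, 0 in DU145 and 80 in LNCAP, and CMPK2 had 64, 1 and 96. RSAD2 was at least 26.7-fold lower in DU145 than in LNCAP and 7.82-fold lower in PC3 (4.04 to 16.9). CMPK2 was 96.2-fold lower in DU145 from 1 count (16.9 to 3840), and 1.47-fold lower in PC3 (1.06 to 2.05). Of the SAMD9 pair, which restrict translation, SAMD9 was at 16.7, 11.4 and 6.46 CPM in PC3, DU145 and LNCAP, and SAMD9L had 63, 11 and 3 counts. SAMD9L was 21.5-fold higher in PC3 than in LNCAP (7.02 to 107). ISG20, an exonuclease gene, was highest in LNCAP (14.1, 13.4 and 22.6 CPM).

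The genes with IFI symbols differ in role. IFI16, a sensor of nuclear DNA, had 163 counts in PC3, 110 in DU145 and 2 in LNCAP, which was 83.4-fold (22.7 to 694) and 54.9-fold (14.8 to 459) higher. IFI44 and IFI44L, neighbours on chromosome 1 (78619922 to 78664078), had 76, 22 and 115 counts and 74, 1 and 15 counts in the same order. IFI44L was 5.05-fold higher in PC3 than in LNCAP (2.87 to 9.47) and 15.03-fold lower in DU145 from 1 count (2.31 to 633). IFI27, a mitochondrial and nuclear envelope protein gene, had 9, 42 and 32 counts and was 4.55-fold lower in PC3 than in DU145 (2.18 to 10.6). IFI6, an inhibitor of apoptosis, was at 5.89, 13.1 and 10.6 CPM in PC3, DU145 and LNCAP, and IFI35 at 7.46, 11.6 and 5.76 CPM.

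Of the remaining members, PLSCR1, a phospholipid scramblase gene, had 509 counts in PC3, 522 in DU145 and 23 in LNCAP. It was 22.6-fold higher in both PC3 (14.9 to 36.0) and DU145 (14.9 to 36.0), and those lines did not differ beyond counting error. LGALS3BP, a secreted galectin-binding protein gene, was at 110.4 CPM in PC3, 37.3 in DU145 and 72.6 in LNCAP. SP110, a nuclear body gene, was at 5.63, 5.87 and 10.1 CPM. EPSTI1 had 0, 1 and 14 counts, RTP4 had 2, 1 and 4, and the pro-apoptotic gene XAF1, which shares 38.3% of its exon bases with an opposite-strand model, had 0, 1 and 0. This leaves XAF1 undetected at this depth in PC3 and LNCAP, where the floor of 3 counts used for bounds corresponds to 0.196 and 0.192 CPM.

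The pathway that drives these genes was read from lists chosen beside the members. Of 12 interferon genes, IFNE, an epithelial interferon, was the one that reached 1 CPM, with 85 counts in PC3, 51 in DU145 and 0 in LNCAP. These counts put PC3 at least 28.98-fold above LNCAP, and DU145 at least 17.0-fold above it. All 12 together had 86, 60 and 1 counts in PC3, DU145 and LNCAP. Of these, IFNB1 had 0, 0 and 1 counts, and IFNG had none. Of 9 genes of receptors and their kinases, 2 were at least 4-fold higher in PC3 than in LNCAP, the same number in DU145, and none was lower. Over all genes, 13.0% were higher and 13.3% lower in PC3, and 13.7% and 12.1% in DU145. One was JAK1, the kinase of every interferon receptor, at 102 CPM in PC3, 93.6 in DU145 and 9.40 in LNCAP, which was 10.9-fold (9.20 to 13.0) and 9.95-fold (8.39 to 11.9) higher. The other was IFNLR1, the lambda interferon receptor, with 105, 98 and 0 counts.

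The other signalling genes lay closer together. TYK2 was at 230.3 CPM in PC3, 135 in DU145 and 89.0 in LNCAP, and JAK2 at 20.7, 10.7 and 19.3 CPM. IFNAR1 was at 109.8, 100.3 and 134 CPM in PC3, DU145 and LNCAP, and IFNAR2 at 2.16, 5.23 and 2.24 CPM, where IFNAR2 and IL10RB share exon bases with another protein-coding model and are uncertain. IFNGR1 was at 15.4, 30.1 and 48.9 CPM, IFNGR2 at 54.2, 38.8 and 28.7 CPM and IL10RB at 0.458, 1.72 and 1.66 CPM.

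Of 13 nucleic acid sensing genes compared outside the members, 2 were at least 4-fold higher and 2 lower in PC3 than in LNCAP, beside 13.0% higher and 13.3% lower over all genes. In DU145 2 were higher and none lower, beside 13.7% and 12.1%. Those higher were the genes of the DNA sensing pair. CGAS had 301 counts in PC3, 577 in DU145 and 1 in LNCAP, a 308-fold (54.8 to 12199) and 576-fold (103 to 22777) difference, and TMEM173, the gene of its adaptor STING, had 389, 304 and 32 counts. Both genes lower in PC3 act on RNA. The toll-like receptor gene TLR3 had 1, 32 and 108 counts in PC3, DU145 and LNCAP, and DHX58, a relative of DDX58, had 0, 25 and 89. Of the 3 sensors among the members, IFIH1 was also lowest in PC3. The other sensors were higher in PC3 than in LNCAP, DDX58 at 14.9 against 11.5 CPM and DDX60 at 14.4 against 9.15 CPM. RNA sensing genes thus did not share a direction.

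**Figure D5:**
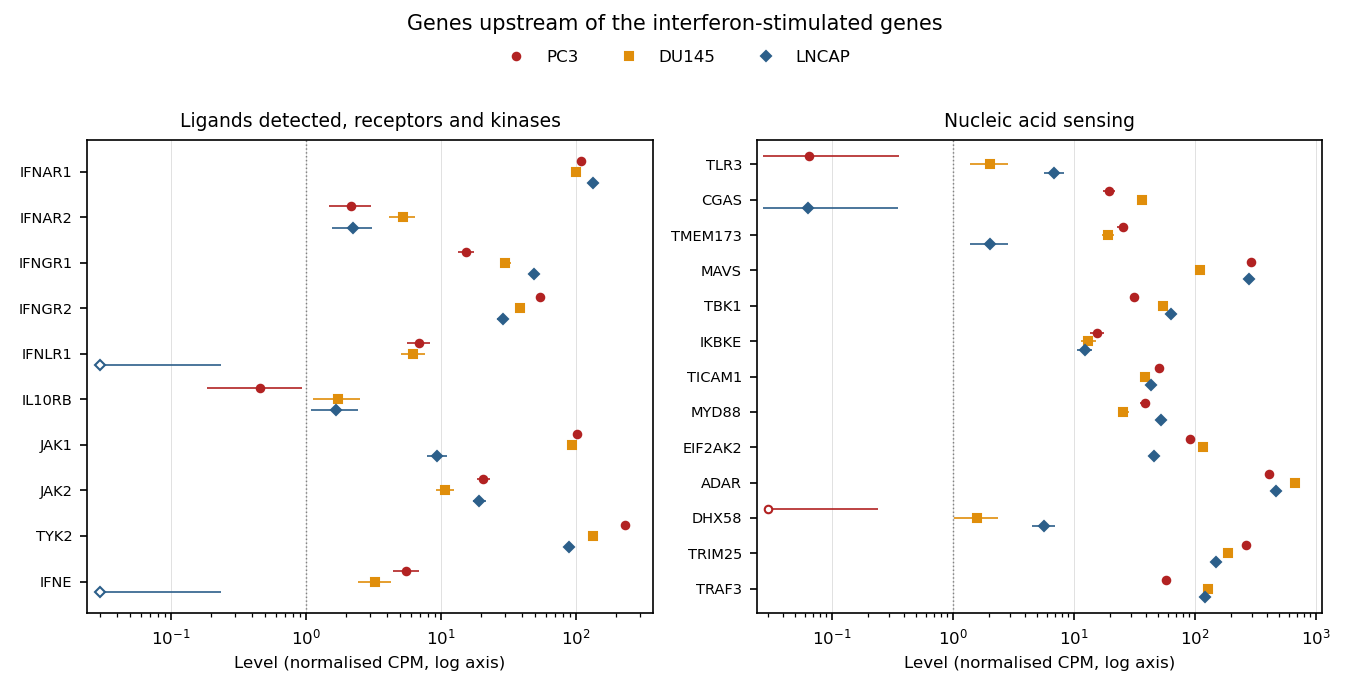
Level of interferon pathway genes that reached 1 CPM in at least 1 library, as normalised CPM on a log axis, in PC3, DU145 and LNCAP. Bars are exact 95% counting intervals of 1 library and open symbols are counts of 0. JAK1, IFNLR1, IFNE, CGAS and TMEM173 are lowest in LNCAP, and TLR3 and DHX58 are lowest in PC3.

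Of 9 negative regulators compared, 1 was at least 4-fold higher in each castration-resistant line, beside 13.0% of all genes in PC3 and 13.7% in DU145. It was SOCS3, an inhibitor of JAK kinases, with 672 counts in PC3, 392 in DU145 and 0 in LNCAP, at least 229-fold and at least 130.4-fold apart. PTPN6, a phosphatase gene, was 4.45-fold lower in PC3 than in LNCAP (3.78 to 5.25). Of 39 other interferon-stimulated genes compared, 5 were higher and 10 lower in PC3 than in LNCAP, 7 higher and 4 lower in DU145 than in LNCAP, and 3 higher and 8 lower in PC3 than in DU145. The shares over all genes were 13.0% higher and 13.3% lower, 13.7% and 12.1%, and 8.54% and 10.6% in these comparisons. The median log2 ratio of this list in PC3 against DU145 was -0.54, against 0.53 for the members. The chemokine genes CXCL10, CXCL11 and CCL5 were read almost wholly in LNCAP, with 0, 0 and 278 counts for CXCL10 in PC3, DU145 and LNCAP, 0, 0 and 55 for CXCL11 and 1, 0 and 24 for CCL5. The immunoproteasome gene PSMB8 had 317, 570 and 12 counts, and NMI, the gene of an interferon-induced protein, 145, 217 and 18. The immune checkpoint ligand gene CD274 was highest in DU145, with 27, 162 and 23 counts, and was 7.03-fold higher there than in LNCAP (4.52 to 11.4).

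The class comparison set PC3 and DU145 as 2 libraries against LNCAP and asked which members separated the classes. edgeR's quasi-likelihood test with Benjamini-Hochberg adjustment called none of the 48 members and none of the 18025 genes (0.00%). At an unadjusted p under 0.05 it gave 4 members, PLSCR1, PARP14, TRIM22 and IFI16, and 1746 genes (9.69%). The smallest adjusted p among members was 0.332, for PLSCR1, at a log2 difference of 4.49 with both lines above LNCAP. DESeq2 called 1298 genes (7.20%) and, among members, the same 4 genes, with PLSCR1, PARP14 and IFI16 higher and TRIM22 lower than in LNCAP. With 1 residual degree of freedom each of these fits takes its spread within the castration-resistant class from how far PC3 and DU145 lay apart. limma-voom called none.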

How the data were processed

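RNA was sequenced in 3 cell lines, with 1 library each made from 4 ug of total RNA, per the labels' protocols. The authors deposited raw read counts per gene and, separately, FPKM values per gene. Dividing each deposited FPKM into its count gave gene length times a single constant of the library, so both units hold the same reads. Tools named in the submitters' processing notes, with no role given, are Cuffdiff 2.1.1, Cufflinks 2.1.1, TopHat2 2.0.9 and Bowtie2 2.0.6. For the program that counted reads, its strand setting and the build, the entry is not given in the sources used here. GENCODE release 29 held all 58735 gene identifiers, 58724 with the same start and end, so coordinates are on GRCh38. Exons of 19 members share bases with another gene model, and their levels are less certain. Of these, 6 share 20% or more of their exon bases with 1 other model. For models on opposite strands the uncertainty comes from the unknown strand setting. Overlaps on the same strand, as for IRF9 and IFITM1, would remain under any setting.

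The filter kept the 18025 genes that reached 1 CPM in any library. TMM factors were 0.998 for PC3, 0.987 for DU145 and 1.02 for LNCAP (edgeR 4.0.16, R 4.3.3). Intervals at 95% were Clopper-Pearson ones for ratios and exact Poisson ones for levels (Python 3.11.15, scipy 1.17.1). No fold was computed between 2 libraries of 3 counts or fewer. Since reads lack molecular identifiers, several can come from 1 molecule, and intervals and bounds cover counting error only. The class test was edgeR's quasi-likelihood test at an adjusted p of 0.05, with DESeq2 1.42.0 and limma 3.58.1 as alternatives. Its p-values set the difference from the LNCAP library against a spread estimated from PC3 and DU145 with information shared over genes. PC3 and DU145 are 2 different lines, so no spread between cultures of a line enters. The members and lists were chosen with earlier results of these data known. All members could be named, and from the other lists the receptor and kinase genes and any gene 4-fold apart in a pair. Some genes of these lists are not reported here, and the counts leave them out. IFNB1, IFNG and the marker genes were named outside this rule.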

Additional observations from a re-analysis of the deposited data

How the results depend on the processing

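Called member ratios kept their direction in every alternative run that still compared them. The runs used DESeq2 size factors, plain library totals, no filter or a filter of 5 CPM. Others added 5 counts, or 0.1 or 1 to FPKM. The 5 CPM filter left 126 of the 144 member ratios. Such changes of scaling, filter or added constant could hardly reverse a called ratio, so the kept directions are no independent check. Counts of calls moved under some of these runs. With 1 added to FPKM, which shrinks ratios of low genes, 3 members were higher (against 5.03% of all genes) and 1 lower (4.14%) in PC3 than in LNCAP. In DU145 against LNCAP 3 were higher (4.92%) and 0 lower (3.69%), and in PC3 against DU145 1 was higher (2.62%) and 0 lower (2.90%). The medians there were -0.27 for DU145 against LNCAP and 0.12 for PC3 against DU145. In PC3 against DU145, members lower in PC3 numbered 1 with a 5 CPM filter (8.25%), 1 with 5 added counts (8.29%) and 0 with 0.1 added to FPKM (8.37%). Members higher in PC3 numbered 8 (7.05%), 9 (6.66%) and 8 (6.79%) in the same runs. In DU145 against LNCAP, 5 were lower with a 5 CPM filter (8.96%), which left 42 members. At 2-fold in place of 4-fold, 17 were higher (22.6%) and 11 lower (23.6%) in PC3 than in LNCAP, 9 higher (22.9%) and 13 lower (23.1%) in DU145 than in LNCAP, and 14 higher (18.5%) and 9 lower (19.3%) in PC3 than in DU145. Each share is that of all genes compared under the same setting. In the class comparison DESeq2 called 1298 genes and 4 members, where edgeR called none with either scaling or without a filter. Leaving out PC3 or DU145 leaves 1 library in each class and no test. No paired analysis was possible because each line has 1 library. Depth limits the genes with few counts, such as RSAD2, IFITM1, BST2 and XAF1, whose 0 counts do not show that the RNA is absent.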
